A study of Mus musculus with 2 samples.

Results

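The genes described here encode cytokines, secreted proteins by which T cells act on other cells. The group of 10 genes was chosen by name and consisted of Csf2, the genes of the type 2 cytokines Il4, Il5, Il13 and Il9, the growth factor genes Il2, Il3 and Il21, the anti-inflammatory cytokine gene Il10, and Areg. Of the 10 genes, 9 had a row that names them, 1 row each, among 65956 rows on the array and 30142 genes with a row of their own. No row names Areg, so its level was not analysed here. None of the 9 rows names a second gene.

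RNA came from sorted Vγ6 γδ T cells. These lymphocytes, named for the Vγ6 chain of their receptor, arise in the fetal thymus and are known for making interleukin 17. They were stained with antibodies and taken from the thymus of C57BL/6 mice aged 0 days. The mice were either wild type (WT) or knockouts without MHC class II (MHC class II KO, here KO), by which antigen-presenting cells show peptides to CD4 T cells, and no treatment is described for either. The disrupted class II gene and any pooling of animals are not named in the labels. Each group was measured on 1 array, so no value has an error or a test, and every difference describes these 2 arrays only.

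Cytokine genes of this kind are usually silent in resting T cells and are switched on through the T cell receptor and through cytokine signals, by NFAT, AP-1 and NF-κB together with lineage factors such as GATA3. The Il4, Il13, Il5, Csf2 and Il3 genes lie in a shared cluster on mouse chromosome 11, and Il2 and Il21 lie side by side on chromosome 3. Csf2 encodes granulocyte-macrophage colony-stimulating factor (GM-CSF), which supports myeloid cells and is made by many inflammatory T cells, those that make interleukin 17 among them.

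Csf2 was the only measured member with a signal above background on these arrays, and it was brighter on the KO array. Its signal was 97.9 on the WT array, against 152 on the KO array. On the log2 scale these are levels of 6.61 and 7.24, a difference of 0.63, or 1.55-fold. In sorted cells measured in bulk, more cells with a transcript and more transcript in each cell cannot be told apart. The other 8 genes with a row, which include every type 2 cytokine gene of the group, were not above background on either array. So 1 of 9 measured members was above background, against 48.1% of all genes with a row of their own.

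The background of each array was set from 1228 rows of olfactory receptor genes, which belong to odour-sensing neurons. It is the 95th percentile of those rows, which was a signal of 61.3 for WT and 58.2 for KO, or 5.94 and 5.86 on the log2 scale. Csf2 exceeded it 1.60-fold on the WT array and 2.60-fold on the KO array. The margin was modest, since 22 olfactory receptor rows on the WT array and 8 on the KO array were at least as bright as Csf2. With the background at the 99th percentile (129 and 137), Csf2 was above it on the KO array alone, which leaves a bound of at least 1.18-fold.

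**Figure D1:**
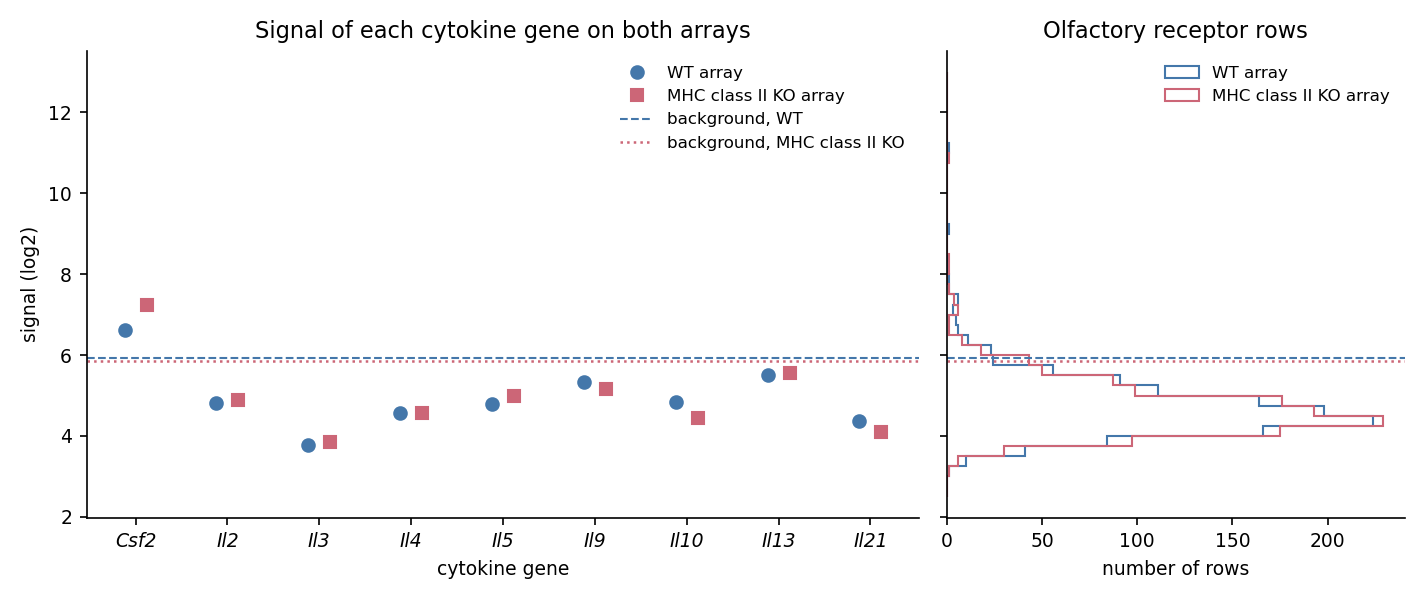
The left panel plots the log2 signal (vertical axis) of the 9 measured cytokine genes, with a circle for the WT array and a square for the KO array, and dashed and dotted lines for the 2 backgrounds. The right panel counts the 1228 olfactory receptor rows by log2 signal on each array, and Csf2, at 6.61 and 7.24, is the gene whose points lie above both lines.

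Members were counted as apart at 1.5-fold and at 2-fold. Csf2 passed the lower threshold by a log2 margin of 0.05 and did not pass the higher one. All 14494 genes with a signal over background on 1 or both arrays gave the comparison. Of these, 6.4% were 1.5-fold or more apart, 3.74% higher on the KO array like Csf2 and 2.66% lower. At 2-fold it was 1.55%, with 0.738% higher and 0.807% lower. In all, 473 other genes had a difference at least as high as that of Csf2 in the same direction. Csf2 was also set beside the 2611 genes whose mean log2 signal lay within 0.5 of its own. Their middle 95% of differences ran from -1.12 to 0.635, and 70 of the other genes of like signal had a difference at least as high. Of these genes of like signal, 3.45% were 1.5-fold or more higher on the KO array and 5.21% lower, so the balance of directions was the reverse of that over all genes. The difference of Csf2, at 0.631, lay just inside the upper limit. The 473, the 70 and the middle 95% use measured differences, also for genes under background on 1 array. The shares at 1.5-fold and 2-fold use bounds for such genes. Among 78 olfactory receptor rows above background, 0 were 1.5-fold or more higher on the KO array and 6 were that much lower.

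**Figure D2:**
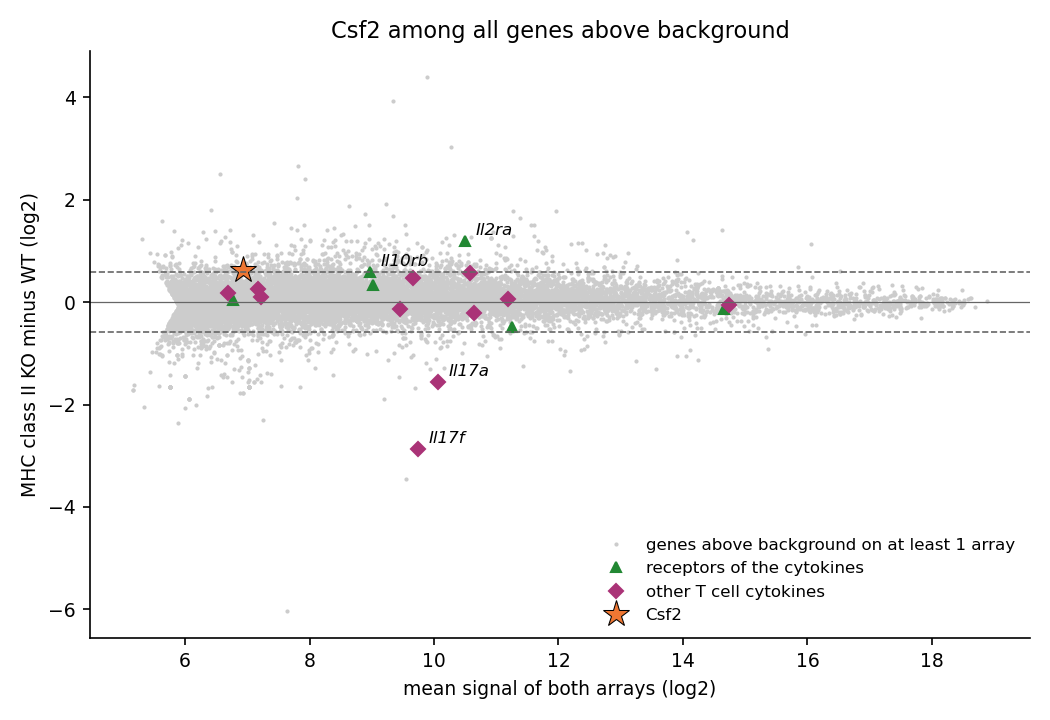
Each grey point is a gene above background on at least 1 array, placed by its mean log2 signal (horizontal axis) and by the log2 difference of KO minus WT (vertical axis), with dashed lines at 1.5-fold. Csf2 (star) lies at a difference of 0.63 in the dim range where the cloud is wide, the receptors of the cytokines are triangles, and Il17a (-1.57) and Il17f (-2.88) stand apart below among the other T cell cytokines (diamonds).

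The genes nearest to Csf2, by Euclidean distance over the 2 log2 signals, were Klhl9 and Mitf. The search covered 8903 of the 13710 genes above background on both arrays. Left out were predicted gene models, pseudogenes, small RNAs and receptor gene segments, among others. Klhl9, which encodes an adaptor of a ubiquitin ligase, had log2 signals of 6.63 and 7.24 (distance 0.020). Mitf, which encodes a transcription factor of pigment cells and mast cells, had 6.60 and 7.32 (distance 0.079). With 2 arrays, likeness of this kind says only that the pair of signals is close.

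The 3 classical type 2 cytokine genes were all within the range of the olfactory receptor rows. Il4, whose product drives class switching to IgE, had signals of 23.6 (WT) and 23.9 (KO), which is close to the median olfactory receptor row (24.3 and 24.2). Il5, whose product matures eosinophils, had 27.5 and 31.6. Il13, whose product acts on mucus-producing epithelium, had 45.8 and 47.1 and was the nearest to background of the genes under it, brighter than 88.8% and 90.2% of olfactory receptor rows. It was above background on the KO array alone when the 90th percentile was used (47.9 and 46.6). Il9, a growth factor gene for mast cells, had 40.7 on the WT array and 35.6 on the KO array. None of these 4 genes has a fold, because a ratio of background signals does not measure the transcript.

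The growth factor and regulatory cytokine genes were under background too. Il2, the gene of the main T cell growth factor, had signals of 28.0 (WT) and 29.7 (KO). Il21, whose product acts on B cells, had 20.7 and 17.2. Il3, whose product feeds early blood cells and mast cells, had 13.8 and 14.5, which is brighter than 4.72% and 6.11% of olfactory receptor rows. Il10, the gene of a cytokine that restrains inflammation, had 28.4 and 21.7, the widest gap of these genes. The 8 genes under background had gaps between -0.39 and 0.20 on the log2 scale, 5 brighter on the KO array and 3 brighter on the WT array. All 8 lay inside the middle 95% of gaps of the 1150 olfactory receptor rows at or under background on both arrays, which ran from -0.57 to 0.58. At this sensitivity a low level of these transcripts, or transcripts in a few of the cells, would not be detectable.

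Upstream sequences of 3 genes are shown because Csf2 and Il3 are neighbours in the same orientation, with starts 17380 bases apart and signals on opposite sides of background, and because Il9 alone of the members carried each of the searched motifs. They are the 250 bases before the annotated start, from RefSeq on GRCm38.p6, written 5′ to 3′ on the gene's strand. Csf2 is at chr11:54249900-54250149, Il3 at chr11:54267280-54267529 and Il9 at chr13:56482258-56482507, all on the minus strand. Capitals mark GGAAA, the core of NFAT sites, the AP-1 motif TGANTCA, and the κB motif, each searched on both strands. A κB match always contains a GGAAA on the other strand.
Csf2: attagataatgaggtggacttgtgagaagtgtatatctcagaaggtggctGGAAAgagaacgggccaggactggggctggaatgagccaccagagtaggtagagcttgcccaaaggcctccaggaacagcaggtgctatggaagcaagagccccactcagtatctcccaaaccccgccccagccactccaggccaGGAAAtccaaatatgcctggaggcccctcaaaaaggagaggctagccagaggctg
Il3: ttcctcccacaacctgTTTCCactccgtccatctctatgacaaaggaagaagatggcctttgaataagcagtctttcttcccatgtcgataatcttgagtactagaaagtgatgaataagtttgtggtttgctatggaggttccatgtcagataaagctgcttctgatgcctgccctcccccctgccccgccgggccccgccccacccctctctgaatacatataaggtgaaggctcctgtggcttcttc
Il9: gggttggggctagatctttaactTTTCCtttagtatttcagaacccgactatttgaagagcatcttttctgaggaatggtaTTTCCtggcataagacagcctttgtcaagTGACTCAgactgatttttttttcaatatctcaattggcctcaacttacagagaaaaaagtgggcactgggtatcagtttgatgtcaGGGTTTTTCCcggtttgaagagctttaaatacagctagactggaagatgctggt

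The Csf2 window held 2 GGAAA matches, starting at -200 and -55 relative to the start, the Il3 window 1 and the Il9 window 3. Over all members, 10 windows of 9 genes were matched (Il4 has 2 starts, and Il10 has no entry), and 9 of them held GGAAA, against 55.6% of 32851 windows of all genes. The AP-1 and κB motifs were found in 1 of the 10 windows each, that of Il9, against 6.75% and 1.41% of all windows. These matches describe letters in a short window and do not separate the gene above background from the others.

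The cluster on chromosome 11 was read in annotated gene order, from the second protein-coding gene before Il4 to the second after Il3. It held 5 members and 11 other genes, each with a row. Of the 11 others, 5 were above background on both arrays, with differences between -0.07 and 0.25, the highest that of the carnitine transporter gene Slc22a5. Slc22a21 (5.81 to 6.08) and Pdlim4 (5.82 to 5.94) were above it on the KO array alone. Counting bounds for these, 0 of the 7 were 1.5-fold apart. Septin8, at the edge of the cluster, differed by 0.12. Rad50, a DNA repair gene between Il13 and Il5 whose locus also carries the control region of the type 2 cytokine genes, had log2 signals of 10.52 and 10.62. Irf1, an interferon response factor gene beside Il5, had 8.29 and 8.22, and P4ha2 and Acsl6, on either side of the Csf2 and Il3 pair, were under background.

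**Figure D3:**
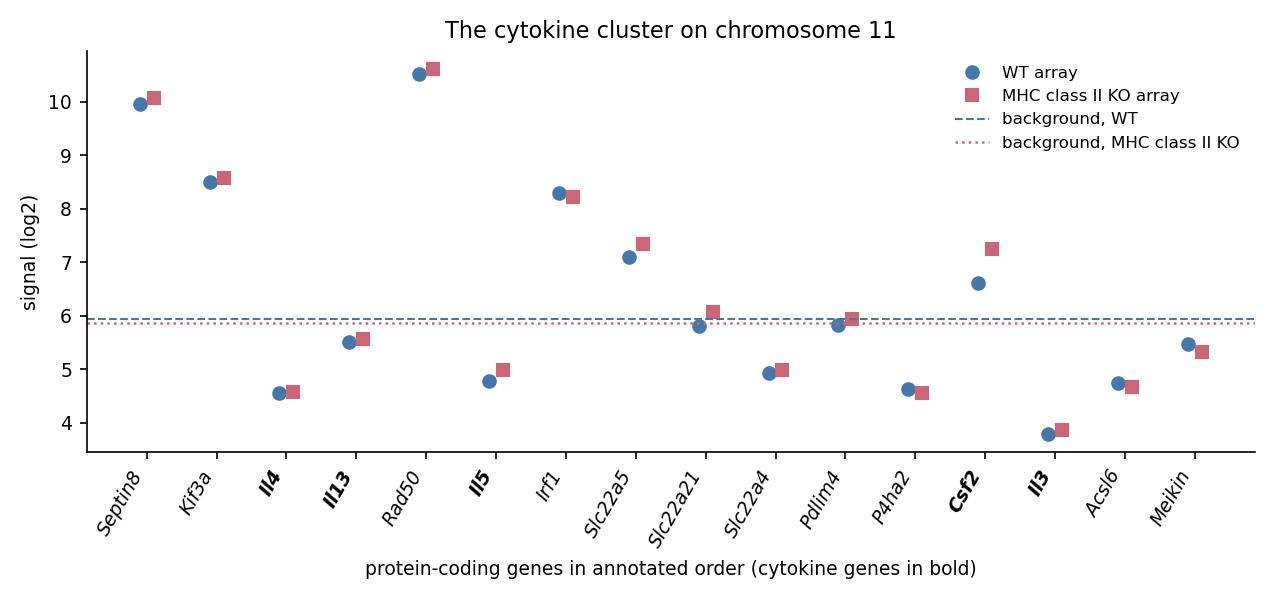
Log2 signal (vertical axis) of the 16 protein-coding genes of the chromosome 11 cytokine cluster, in annotated order, with circles for the WT array, squares for the KO array and lines for the 2 backgrounds. Among the cytokine genes (bold) Csf2 lies above the lines, at 6.61 and 7.24, while Il4, Il13, Il5 and Il3 lie under them; levels of different genes come from different probes and are not comparable.

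Around Il2 and Il21 on chromosome 3, 4932438A13Rik differed by -0.30 and Cetn4 by 0.03 (sign changing with the scaling), and the other 2 neighbours were under background. Beside Il10 on chromosome 1, Mapkapk2, a stress-activated kinase gene, differed by 0.24 and Dyrk3 by -0.31, while Il19 and Il20 were under background. The 4 neighbours of Il9 on chromosome 13 were all under background. So were the 4 neighbours of Areg on chromosome 5, where the related ligand genes Epgn, Ereg and Btc lie.

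The receptors of these cytokines were measured on the same arrays. Of 16 receptor genes, 13 had a row of their own and 6 were above background, each on both arrays. Of the 6, 2 were 1.5-fold or more higher on the KO array and 0 were lower, and the median difference was 0.19, beside 0.04 for all genes above background. Il2ra, the chain that gives the interleukin 2 receptor its high affinity, went from a log2 signal of 9.91 to 11.10, a difference of 1.19. Il10rb, a chain shared by receptors of the interleukin 10 family, went from 8.68 to 9.26, a difference of 0.59. It was under 1.5-fold when centred (0.55), after quantile normalization (0.55) and after the loess correction (0.50), which leaves 1 receptor gene that far apart under each other scaling.

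The remaining receptor genes above background moved less. Il4ra, the chain shared by the receptors for interleukin 4 and interleukin 13, went from 11.49 to 11.01, a difference of -0.48. Il3ra differed by 0.33, Il2rb, a chain of the interleukin 2 and interleukin 15 receptors, by -0.14, and Il21r by 0.04. The 7 under background were Csf2ra, Il13ra1, Il13ra2, Il5ra, Il9r, Il10ra and Egfr. Csf2ra, the ligand-binding chain for GM-CSF, was listed at 28.5 on both arrays, and such equal values occurred in 1.28% of all rows. Csf2rb, Csf2rb2 and Il2rg had no row of their own and were not analysed here.

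Areg belongs to the ligands of the epidermal growth factor receptor. Of 7 such genes, 6 had a row and 1 was above background, Hbegf, which encodes a ligand that T cells can release. Hbegf went from a log2 signal of 10.92 to 11.42, a difference of 0.50, which is under 1.5-fold.

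Other cytokine genes were read in the same way, from lists drawn up with earlier results of these data known. Of 17 other T cell cytokine genes, 11 were above background, all on both arrays, with 0 that were 1.5-fold higher and 2 that were 1.5-fold lower (median 0.05, below 0 after the loess correction and with each other background). The 2 were Il17f (11.18 to 8.30) and Il17a (10.85 to 9.28), the cytokines for which Vγ6 cells are known. Tnf, the gene of tumour necrosis factor, differed by 0.56 and Tnfsf14, which encodes the ligand LIGHT, by 0.47. So Csf2 differed in the opposite direction to Il17a and Il17f on the same 2 arrays. Of 19 interleukin and growth factor genes made chiefly by cells other than T cells, 0 were above background, and their highest signals were 52.8 and 50.9. The 8 dim members, with highest signals of 45.8 and 47.1, were in the same position.

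Transcription factors known to bind the loci of these cytokines were mostly above background and within 1.5-fold. Of 27 with a row of their own, 25 were above background, with 2 that were 1.5-fold higher, 1 that was 1.5-fold lower and a median of 0.01 (below 0 when centred and after the loess correction). Tbx21, the gene for the type 1 factor T-bet, went from 6.14 to 7.31, a difference of 1.17. Irf4, which works with NFAT at cytokine genes, went from 6.77 to 7.43, a difference of 0.66. Fosl2, an AP-1 subunit gene, went from 10.58 to 9.48, a difference of -1.11, and Rel, an NF-κB subunit gene, differed by -0.53. Gata3, the central factor of the type 2 programme, shares its row with another gene and was not read.

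**Figure D4:**
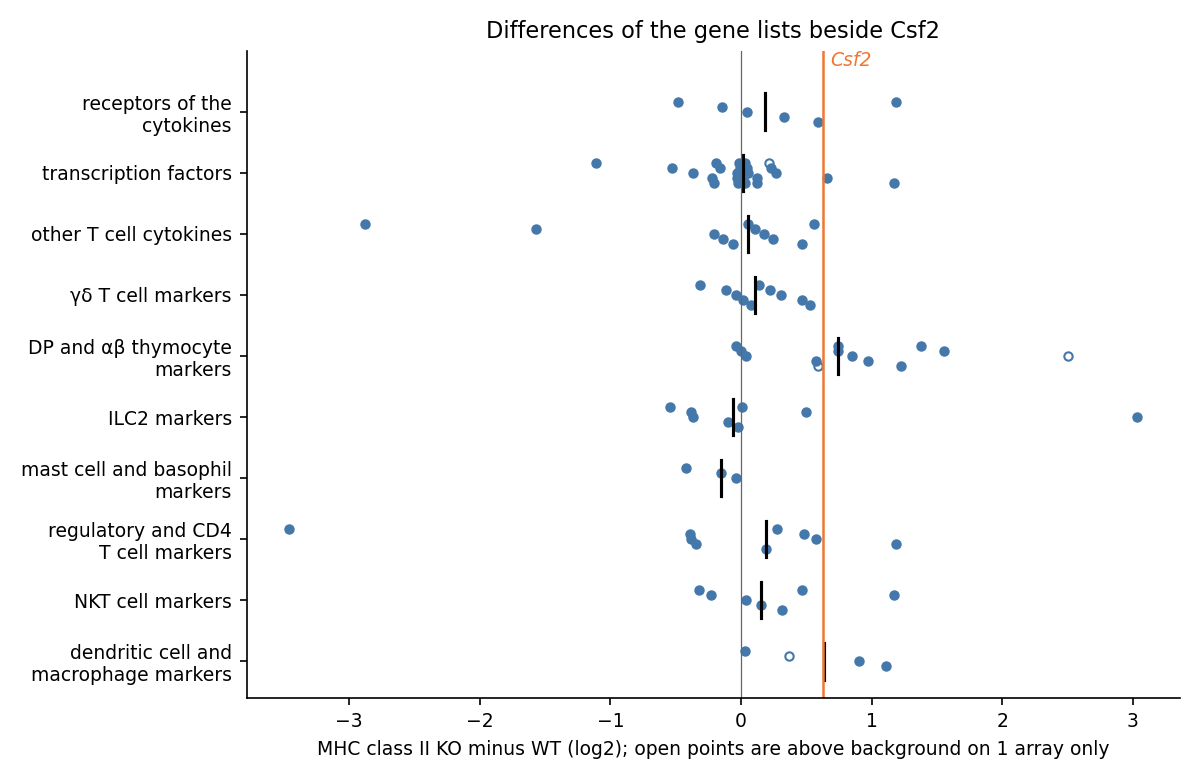
Log2 difference of KO minus WT (horizontal axis) for each gene above background in 10 gene lists, with open points for genes above background on 1 array, black bars for the list medians and an orange line for Csf2 at 0.63. The receptors, transcription factors and other T cell cytokines have medians between 0.01 and 0.19, and the double positive (DP) and αβ thymocyte markers have a median of 0.74.

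The labelled cell type was checked against its markers. All 10 γδ T cell markers with a row of their own were above background on both arrays, and 0 were 1.5-fold apart. The Vγ6 gene Tcrg-V6 had log2 signals of 12.64 and 12.33, and Blk, a kinase gene of interleukin 17-producing γδ cells, had 13.82 and 14.28. Cd3g, a signalling chain gene of the T cell receptor complex, differed by 0.30, and 5830411N06Rik by 0.52, the most of the 10. The class II genes H2-Ab1 (7.68 to 6.67) and H2-Eb1 (6.95 to 5.98) were lower on the KO array, and H2-Aa was above background on the WT array alone (6.09 to 5.08). Where their probes lie relative to the disrupted part is not known, so this checks the labels in part only.

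Markers of other cell types were set beside the Csf2 difference. Of 14 double positive and αβ thymocyte markers with a row, 13 were above background, with 8 that were 1.5-fold higher on the KO array and 0 lower (median 0.74), and their summed signal was 137634 on the WT array and 154321 on the KO array. Most of that sum is Cd3e, a gene of all T cells with signals past the ceiling of a 16-bit scanner, and without it the sum was 15118 and 34814, or 2.30-fold higher on the KO array. Dntt was above background on the KO array alone (5.31 to 7.82), Cd8b1 differed by 1.38, Ly6d by 1.55 and Aqp11 by 1.23. Among 19 markers of dendritic cells and macrophages, 4 had a signal over background, Irf8 (1.11), Cd68 (0.91), Lyz2 (5.86 to 6.23, KO array alone) and Siglech (0.03, sign changing with the scaling). The sums over all 19, with the 15 under background included, were 1092 and 1560. The defining genes Itgax, Flt3, Xcr1, Clec9a, Csf1r, Adgre1, C1qa, C1qb and C1qc were under it on both arrays. The median of those 4 genes was 0.64. With the median of all rows and the 99th percentile as background, other sets of the markers passed, with medians of 0.19 and 1.01. Both lists' medians had the same sign as the Csf2 difference, and the part of such cells in it was not tested.

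Markers of cells known for type 2 cytokines were read as well. Of 16 mast cell and basophil markers 3 were above background, Cpa3 (-0.15), Kit (-0.04) and Il18rap (-0.42). The sums over all 16, with the 13 under background included, were 1391 and 1160. Il18rap, with signals of 736 and 550, was the largest part of both. The defining genes Mcpt4, Mcpt8, Fcer1a and Ms4a2 were under background on both arrays. Of 7 eosinophil markers 0 were above background, so their sums of 184 and 173 are sums of background signals. Of 10 markers of type 2 innate lymphoid cells with a row, 8 were above background (median -0.06), with sums of 44753 and 55719. Without Il7r, which carries most of the sum, it was 16977 and 16517, or 0.97-fold, which is near level. In that sum Arg1 rose (435 to 3559) while Rora (9593 to 7419) and Icos (5786 to 4450) fell. The markers include genes that γδ T cells share, such as Il7r (0.50) and Icos (-0.38), and Arg1, an arginine-splitting enzyme gene, which differed by 3.03, while Hpgds differed by -0.54. Il1rl1, the receptor gene that best marks these lymphoid cells, had no row of its own.

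Regulatory and CD4 T cells and natural killer T cells are further sources of Il2, Il4 and Il10. Of 10 regulatory and CD4 T cell markers with a row, 9 were above background, with 1 that was 1.5-fold higher (Il2ra) and 1 lower (Ctla4, -3.46), a median of 0.19 (-0.03 with the background at the 99th percentile) and sums of 17347 and 14039. Most of each sum is Pdcd1, with signals of 11289 and 8622. Cd4 differed by 0.57 and Tnfrsf18 by 0.48. Cd40lg was under background on both arrays, with signals of 19.5 (WT) and 19.2 (KO). Foxp3 shares its row with another gene and was not read. Of 9 natural killer T cell markers 7 were above background, with 1 that was 1.5-fold higher (Slamf6, 1.17), a median of 0.16 and sums of 6432 and 8018. Zbtb16, a factor gene that Vγ6 cells also use, differed by 0.47, Gzma by 0.31 and Cd160 by -0.32. Beside these values, Il2, Il4 and Il10 were under background on both arrays.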

How the data were processed

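The deposited intensity values are on a linear scale, 1 per transcript cluster and array. Per the submitters' processing notes they were made with RMA (background correction, normalization and probe summary) and Affymetrix Expression Console 1.4.1, with settings and genome build not given in the sources used here. Of the rows, 767 and 742 exceed 65535, the ceiling of a 16-bit scanner, so a further undescribed step could have widened or narrowed every fold.

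Log2 values were taken with Python 3.11.15. Rows with 1 platform symbol (30604, against 2146 with several and 33206 with none) were named, 827 symbols were updated through RefSeq GRCm38.p6, and the brightest row stood for a gene. Where 1 array was under background, counts at 1.5-fold and 2-fold use the bound. Named genes were the members, the 4 genes of each list that differed most in either direction, and the 2 genes nearest to Csf2. Described receptors, ligands and neighbours were also named. Cd3e, Cd3d, Il23r, Rora, Pdcd1, class II genes, Slc22a21, defining genes under background and those that lack a row of their own were added later. List medians use measured differences. The members, lists and rules were chosen with earlier results of these data known. The gene order and the range of like signal were chosen after seeing the data. The number of arrays limits the precision.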

Additional observations from a re-analysis of the deposited data

How the results depend on the processing

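Under each scaling tried Csf2 was higher in MHC class II KO, with log2 differences of 0.59 when centred, 0.64 after quantile normalization and 0.62 after the loess correction. All were at 1.5-fold or more, the centred one only just. Its call ended with the background at the 99th percentile, where 0 members were 1.5-fold apart. Members above background numbered 2 with the 90th percentile (Csf2 and Il13) and 3 with the median of all rows as background (Csf2, Il9 and Il13). With the 99th percentile, 222 genes in place of 386 were 1.5-fold lower and 33 in place of 117 were 2-fold lower, since fewer dim genes were read. The other 58 recomputed counts and Csf2 differences stayed within 1.5 times of the reported counts or on the same side of the threshold. Of 88 recomputed list medians 87 kept their side of 1.5-fold, though some near 0 changed sign, as stated with their lists. That of the dendritic cell and macrophage markers fell to 0.19 with the median of all rows as background. No paired analysis was possible because each group has 1 array and the labels carry no replicate numbers. Signals near background limit what can be said of 8 of the 9 measured genes.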
